A study of Mus musculus with 4 samples.

Results

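Base excision repair and single-strand break repair remove small lesions from DNA and close the nicks that result. A glycosylase cuts out the damaged base, the AP endonuclease opens the strand at the abasic site, a polymerase fills the gap, and a ligase held on a scaffold protein seals it. Poly(ADP-ribose) polymerase 1 (PARP-1) binds the open strand and recruits the scaffold XRCC1. PJ34 inhibits this enzyme. Inherited loss of factors of the pathway, aprataxin among them, is known for neurological disease. The 9 genes described here are Ung, Ogg1, Neil3, Apex1, Polb, Fen1, Xrcc1, Lig3 and Aptx. They were chosen by name, from the probes of the array that carry these gene names and are no control spots. All 9 had a probe and gave a value, among 19678 genes with a ratio, and they are covered by 10 of 55681 probes.

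The RNA came from neural stem/progenitor cells (NSPCs) of mouse embryos at embryonic day 13.5, which were grown in suspension with EGF and basic FGF. One group was wild-type and the other was labelled Trp53-/-, a germline genotype at the gene of p53. The labels give the strain Slc:ICR for both, but the Trp53-heterozygous mice came from the RIKEN BioResource Center, and the background of that line is not given in the sources used here. On each array the Cy5 channel held RNA of cells treated with 20 μM PJ34, and the Cy3 channel held RNA of untreated cells of the same genotype. Each genotype had 2 arrays, for which RNA was prepared independently. No array had its dyes swapped, so a dye bias of a probe and the effect of PJ34 cannot be told apart. The time of treatment before this extraction is not given in the sources used here. The cells are a mixed culture, and for every value below fewer cells of a type and less RNA per cell cannot be told apart.

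All values are log2 ratios of PJ34 over control or log2 levels of the control channel, so that a difference of 1 is 2-fold. Each SE is that of limma's fit, with a spread taken from all 4 arrays and moderated across genes. It does not measure the spread of the arrays of 1 genotype, and n is the number of arrays per genotype. With 2 arrays per genotype, values that separate the genotypes can arise by chance. The share of all genes that separate so was not counted. In each channel of an array, 21505 to 27156 probes stood well above their background, and no spot was saturated. All 10 genes of the NSPC marker list, such as Nes and Sox2, were well above background in both channels of all 4 arrays. The label of the Trp53-/- arrays was checked by Cdkn1a, a direct p53 target, which was 2.70 lower in untreated Trp53-/- than in wild-type cells (q = 0.00899). The Trp53 probe itself was well above background on all 4 arrays, at levels of 8.29 and 8.49 in wild-type and 7.56 and 7.83 in Trp53-/- cells (0.69 lower, q = 0.0518), and which part of the gene was deleted is not given in the sources used here. The second Trp53-/- array stood apart from the others. Its PJ34 channel was 4.22 higher in Eif2s3y and 3.12 higher in Ddx3y, both on the Y chromosome, and 3.08 lower in Xist. The Y-linked genes and Xist were well above background in each channel of the wild-type arrays. On the first Trp53-/- array Xist was so in each channel and the Y-linked genes in neither. On the second Trp53-/- array the Y-linked genes were so in the treated RNA only, and Xist in the control RNA only. The treated and control RNA of this array thus differed in sex-linked transcripts. Its ratios may therefore not compare matched cultures, and why it differs was not tested. The counts of members that include this array are also given without it.

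Printed here is the DNA upstream of the 4 genes that were lower with PJ34 in wild-type cells and whose start is preceded by a stretch that no RefSeq gene record covers, which leaves out Fen1. It was read from RefSeq sequence of GRCm38.p6, 5′ to 3′ on the strand of the gene. Capitals mark a match to the CCAAT box or the GC box GGGCGG on either strand that lies wholly inside the printed stretch. A GC box of Lig3 and 1 of Neil3 begin 4 bases before the start and run past it, so they are not marked. The regions are chr6:113326726-113326971 on the plus strand for Ogg1, chr8:53639066-53639315 on the minus strand for Neil3, chr14:50924894-50924948 on the plus strand for Apex1 and chr11:82781043-82781108 on the plus strand for Lig3.
Ogg1: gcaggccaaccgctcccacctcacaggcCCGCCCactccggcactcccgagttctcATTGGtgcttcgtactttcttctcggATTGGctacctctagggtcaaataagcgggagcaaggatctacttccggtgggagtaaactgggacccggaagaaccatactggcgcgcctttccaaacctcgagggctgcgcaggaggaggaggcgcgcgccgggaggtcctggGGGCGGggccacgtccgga
Neil3: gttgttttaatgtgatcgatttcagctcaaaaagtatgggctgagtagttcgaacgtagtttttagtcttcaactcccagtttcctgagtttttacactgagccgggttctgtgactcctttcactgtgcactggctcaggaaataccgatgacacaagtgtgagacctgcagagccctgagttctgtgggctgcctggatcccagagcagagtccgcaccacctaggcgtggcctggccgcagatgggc
Apex1: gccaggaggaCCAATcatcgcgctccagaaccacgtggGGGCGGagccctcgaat
Lig3: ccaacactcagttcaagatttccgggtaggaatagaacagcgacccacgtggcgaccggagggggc
Over the full window, from 250 bases before to 50 bases after the start, 8 of the 9 members had an entry, and Polb had none. The GC box (GGGCGG, both strands) was found in 6 of these 8, namely Lig3, Aptx, Ung, Ogg1, Apex1 and Neil3, and in 35.7% of 32851 windows of the same length. The CCAAT box was found in 4 members, Xrcc1, Aptx, Ogg1 and Apex1, against 37.4% of all windows. The cell cycle homology region TTTGAA was found in 1 member, Fen1, against 17.9% of all windows. None of the 8 held the E2F motif (TTTCCCGC, TTTCGCGC, TTTGCCGC or TTTGGCGC), which 2.26% of all windows held. None of these matches overlapped a match to another of the 4 motifs. Aptx and Fen1 have 2 windows each, and a match in either was counted. These matches describe letters, and binding was not measured.

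The first question was how the pathway responded to PJ34 in wild-type cells. In wild-type NSPCs, 8 of the 9 genes were called at p below 0.05 and Storey's q below 0.05. Ung, Polb and Aptx were higher, and Fen1, Neil3, Apex1, Ogg1 and Lig3 were lower. Under median centring in place of loess the values of Lig3, Fen1, Ogg1 and Apex1 turned above 0, where the median of all genes was 0.46. Only Xrcc1 was not called, but under median centring it was called higher (0.72). Of all 19678 genes, 13.7% were called higher and 11.4% lower. No member passed 2-fold, which 0.503% of all genes passed with a call. The changes ran from a 1.49-fold decrease to a 1.60-fold increase, and their median was -0.33, beside 0.03 over all genes.

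Among the glycosylases, Ung, which removes uracil from DNA, gave log2 ratios of 0.71 and 0.64 in wild-type and 0.51 and 0.43 in Trp53-/- cells (probe at chr5:114588731-114588790, mm9, plus strand). All 4 arrays were above 0, and both wild-type values lay above both Trp53-/- values. The increase was 1.60-fold in wild-type (0.68 ± 0.09, SE, n = 2, q = 0.00044) and 1.38-fold in Trp53-/- (0.47 ± 0.09, SE, n = 2, q = 0.00362). Ung was the only member called in both genotypes. Of the 60 bases of its only probe, 34 are 1 run of a GT repeat, beside at most 5 bases of any repeated dinucleotide in the probes of the other members, and whether other transcripts with such a repeat bind it was not tested. The difference between the genotypes was 0.21, with a 95% interval from -0.07 to 0.49 (q = 0.367).

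Ogg1, the glycosylase of 8-oxoguanine, gave -0.34 and -0.33 in wild-type and -0.04 and -0.42 in Trp53-/- cells (probe at chr6:113284105-113284164, mm9, plus strand). The wild-type arrays were close to each other, and the Trp53-/- arrays spread on either side of them. Ogg1 was 1.26-fold lower in wild-type (-0.33 ± 0.11, SE, n = 2, q = 0.0278) and was not called in Trp53-/- (-0.23 ± 0.11, SE, n = 2, q = 0.0833). Neil3, a glycosylase of oxidized bases known from proliferating progenitors, gave -0.37 on both wild-type arrays and 0.18 and -0.13 on the Trp53-/- arrays (probe at chr8:54672466-54672525, mm9, minus strand). The Trp53-/- values lay on both sides of 0. Neil3 was 1.29-fold lower in wild-type (-0.37 ± 0.10, SE, n = 2, q = 0.0143), against 0.02 ± 0.10 in Trp53-/- (SE, n = 2, q = 0.442).

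Apex1, the main AP endonuclease, gave -0.34 and -0.37 in wild-type and -0.15 and -0.02 in Trp53-/- cells (probe at chr14:51546483-51546542, mm9, plus strand). All 4 values were below 0, and the wild-type values were the lower ones. It was 1.28-fold lower in wild-type (-0.35 ± 0.09, SE, n = 2, q = 0.0116), against -0.09 ± 0.09 in Trp53-/- (SE, n = 2, q = 0.273). Polb, the polymerase that fills the short gap, moved the other way. It gave 0.32 and 0.43 in wild-type and 0.19 and 0.11 in Trp53-/- cells (probe at chr8:23747560-23747619, mm9, minus strand). All 4 values were above 0, and Polb was called in wild-type only (1.29-fold, 0.37 ± 0.09, SE, n = 2, q = 0.00921), with 0.15 ± 0.09 in Trp53-/- (SE, n = 2, q = 0.142).

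Fen1, the flap endonuclease of the long-patch branch and of lagging-strand synthesis, had the largest decrease of the 9 in wild-type by the loess-normalized ratios of both arrays, but Neil3 was lower by the ratios of the scanner software (-0.72 against -0.52) and relative to the median of all genes under median centring (-0.57 against -0.35), and Lig3 was lower without wild-type replicate 2 (-0.54 against -0.48). Its log2 ratios were -0.48 and -0.66 in wild-type and 0.04 and -0.25 in Trp53-/- cells (probe at chr19:10273675-10273734, mm9, minus strand). The Trp53-/- values of Fen1 lay on both sides of 0. Fen1 was 1.49-fold lower in wild-type (-0.57 ± 0.10, SE, n = 2, q = 0.00196) and was not called in Trp53-/- (-0.11 ± 0.10, SE, n = 2, q = 0.254).

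The genes of the sealing step did not all move one way. Xrcc1, the scaffold, gave 0.23 and -0.12 in wild-type and 0.04 and -0.02 in Trp53-/- cells (probe at chr7:25358268-25358327, mm9, plus strand). Its arrays disagreed in sign in both genotypes, and the wild-type mean of 0.05 had a 95% interval from -0.18 to 0.28 (q = 0.395). Lig3, the ligase that XRCC1 carries, was lower on all 4 arrays, with -0.54 and -0.14 in wild-type and -0.16 and -0.24 in Trp53-/- cells (probe at chr11:82617710-82617769, mm9, plus strand). The wild-type arrays enclosed both Trp53-/- values. The wild-type decrease was 1.26-fold (-0.34 ± 0.11, SE, n = 2, q = 0.0279), and the Trp53-/- value was -0.20 ± 0.11 (SE, n = 2, q = 0.115). A second Lig3 probe, at chr11:82613739-82613798, gave -0.34 and -0.64 in wild-type and -0.22 and -0.20 in Trp53-/- cells, which is the same direction on every array.

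Aptx, which removes AMP left on a nick by a failed ligation, gave 0.23 and 0.24 in wild-type and 0.10 and 0.12 in Trp53-/- cells (probe at chr4:40629415-40629474, mm9, minus strand). All 4 arrays were above 0, and the wild-type values were the higher ones. The wild-type increase was 1.18-fold and close to the threshold (0.24 ± 0.09, SE, n = 2, q = 0.0472), and the Trp53-/- value was 0.11 ± 0.09 (SE, n = 2, q = 0.21).

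**Figure D1:**
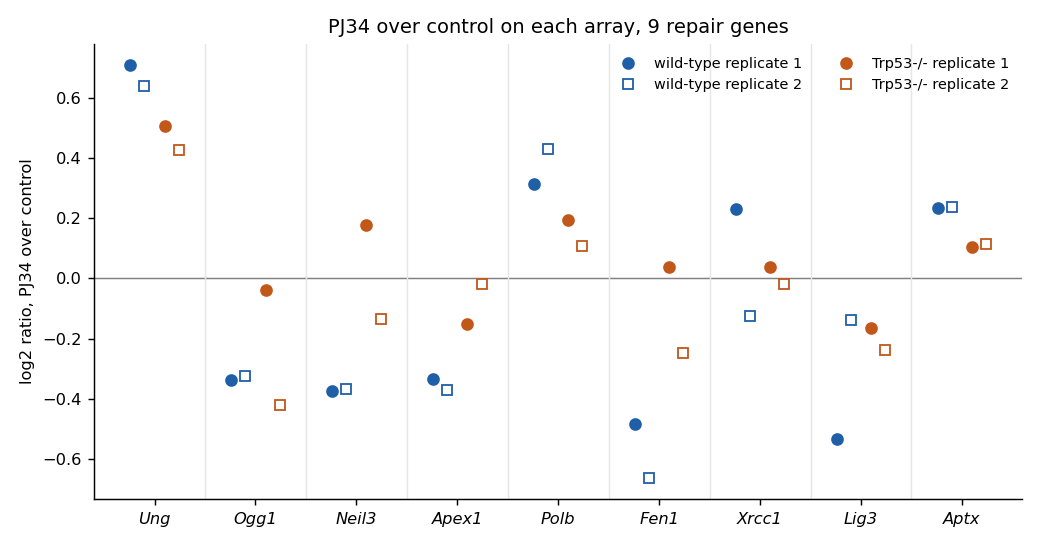
Log2 ratio of PJ34 over control (vertical axis) of the 9 repair genes on each of the 4 arrays, wild-type in blue and Trp53-/- in orange, circles for replicate 1 and open squares for replicate 2. Ung lies between 0.43 and 0.71 on all arrays, and Fen1 lies at -0.48 and -0.66 in wild-type only. Under median centring the wild-type means of Fen1, Lig3, Ogg1 and Apex1 lie above 0 but below the median of all genes, which is then 0.46.

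These calls rest on few arrays, and the counts of members below stand without the share of all genes called in the same setting. Without wild-type replicate 1 or without wild-type replicate 2, 3 of the 9 genes were called in each case (Fen1 and Ung in both, with Polb or Lig3), and with Benjamini-Hochberg adjustment 5 were, since Lig3 (0.0544), Ogg1 (0.0542) and Aptx (0.0921) then missed 0.05. The scaling mattered as well. With the scanner software's own log ratios only Ung was called. With median centring the median of all genes rose to 0.46 and 4 members were called, all higher, Xrcc1 among them. Relative to that median Lig3 (-0.25), Fen1 (-0.35), Ogg1 (-0.21), Apex1 (-0.13) and Neil3 (-0.57) were below the other genes. Ung (0.94), Polb (0.49), Xrcc1 (0.26) and Aptx (0.09) were above them.

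In Trp53-/- cells the same comparison called 1 of the 9 genes, Ung, which was higher. Of all genes, 12.7% were called higher and 10.5% lower in this genotype, and 0.371% were called past 2-fold, which no member passed. The 9 log2 ratios ran from -0.23 for Ogg1 to 0.47 for Ung, with a median of 0.01, beside 0.03 over all genes. Without Trp53-/- replicate 2, the array that stood apart, the count stayed at 1, and without Trp53-/- replicate 1 it was 2, Ung higher and Ogg1 lower (-0.42, q = 0.0414). When the ratios of the scanner software were used, 0 of 9 were called, Ung then having q = 0.0528, and 594 of all genes were. With median centring all 9 were called higher, but the median of all genes was then 0.64, and relative to it Lig3, Aptx, Ogg1 and Neil3 were below 0.

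Whether the genotypes differed in their response was tested as wild-type minus Trp53-/-. Of the 9 genes 0 were called, and 2 had an unadjusted p below 0.05, beside 1.34% of all genes called higher, 0.493% called lower and 0.488% called past 2-fold. Fen1 (-0.47, 95% interval from -0.79 to -0.15, q = 0.116) and Neil3 (-0.39, 95% interval from -0.71 to -0.08, q = 0.168) were these 2 in limma's fit, and both were lower in wild-type. The next was Apex1 (-0.27, 95% interval from -0.55 to 0.02, q = 0.279). For the 6 other genes the intervals included 0. The call of a gene in wild-type and not in Trp53-/- was therefore not shown to be a difference between the genotypes for any of the 9. None was called without Trp53-/- replicate 2 either, nor under any other alternative.

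**Figure D2:**
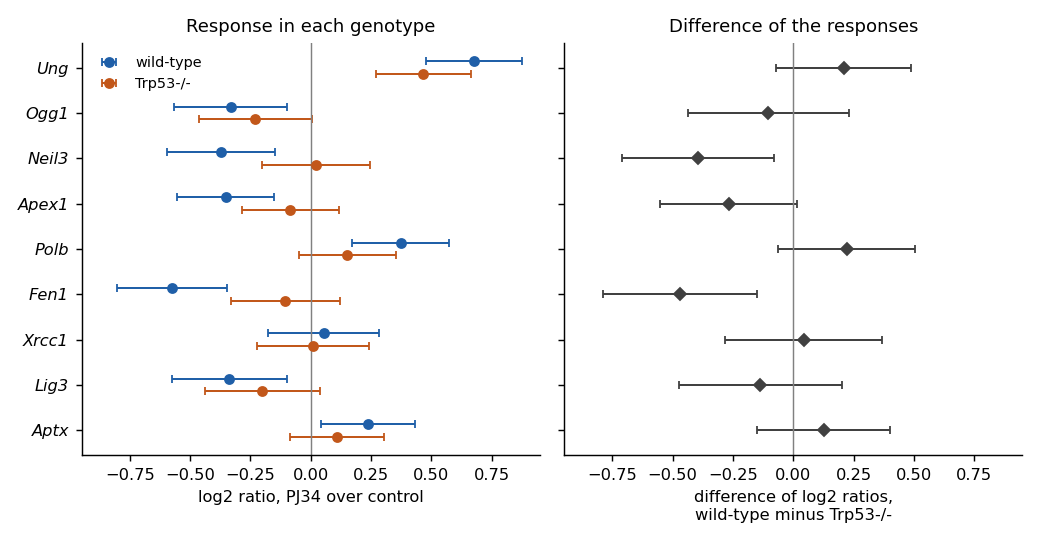
Left, the mean log2 ratio of PJ34 over control of each gene (horizontal axis) in wild-type (blue) and Trp53-/- (orange), and right, the difference of these means, wild-type minus Trp53-/-; bars are 95% intervals of limma's fit over the 4 arrays. The interval of the difference leaves out 0 for Fen1 (-0.79 to -0.15) and Neil3 (-0.71 to -0.08), neither of which passed q below 0.05. Under median centring all 9 means in Trp53-/- and those of Fen1, Lig3, Ogg1 and Apex1 in wild-type lie above 0. The median of all genes is then 0.46 in wild-type and 0.64 in Trp53-/-.

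The rest of the pathway was read from lists of genes that hold no member. The list of gap filling and ligation genes of the long-patch branch, most of which also serve DNA replication, had 9 of 12 genes called lower and 0 higher in wild-type, with a median of -0.38 (0.28 under median centring, with 3 called higher). Its largest decreases were those of Pold1, the catalytic subunit of DNA polymerase δ, with -0.77 and -0.97 on the wild-type arrays and -0.26 and -0.28 on the Trp53-/- arrays, and of Rfc5 of the clamp loader (-0.77 ± 0.10, SE, n = 2, q = 0.000348). Rfc4 (-0.50 ± 0.10, SE, n = 2) and Lig1, the replicative ligase (-0.48 ± 0.09, SE, n = 2), were also lower. In Trp53-/- cells 2 of the 12 were lower, Rfc5 (-0.32) and Pold1 (-0.27), and 1 was higher, Rfc3 (0.34), but without the second Trp53-/- array 1 was lower and 0 higher. The difference between genotypes was called for 2 of the 12, Pold1 (-0.60, q = 0.042) and Lig1 (-0.60, q = 0.0439), both lower in wild-type. Without that array 1 of the 12 was called lower and 1 higher for the difference, and with Benjamini-Hochberg adjustment 0 of the 12 were called for the difference, where 10 had an unadjusted p below 0.05 in limma's fit. Without wild-type replicate 2, 3 of the 12 were called lower in wild-type, without wild-type replicate 1, 7, and under median centring 0, although 10 of the 12 were then below the median of all genes.

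Genes of S phase moved with it. In wild-type 14 of 17 were called lower and 0 higher (median -0.45, and 0.22 under median centring), and in Trp53-/- 0 were lower and 3 higher (median 0.11). Without wild-type replicate 2 the count in wild-type was 7. For the difference 7 of 17 were called, all lower in wild-type, 3 with Benjamini-Hochberg adjustment, and 17 of 17 lay below 0. Without the second Trp53-/- array 5 of 17 were called for the difference, and without wild-type replicate 2 none of 17 was. Genes of G2 and M phase had 13 of 14 called lower in wild-type (median -0.64, and 0.02 under median centring) and 5 of 14 in Trp53-/-, and 0 of 14 called for the difference, where 6 had an unadjusted p below 0.05 in limma's fit and 3 were called without the second Trp53-/- array or without wild-type replicate 1. With median centring no gene of either list was called lower in any genotype, and relative to the median of all genes 16 of 17 S phase genes and 14 of 14 of the G2 and M phase genes were lower in wild-type, while 17 of 17 S phase genes were higher in Trp53-/-. Leaving out the second Trp53-/- array changed the Trp53-/- counts to 1 higher for S phase and 0 lower for G2 and M phase, and without Trp53-/- replicate 1 they were 1 higher and 7 lower. The part of the share of cycling cells in the values of Fen1 and the other members was not tested.

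The list of break sensing also held genes that remove poly(ADP-ribose) and do not themselves sense breaks. Of its genes, Parp1, the gene of the main target of PJ34, was 1.32-fold lower in wild-type. It gave -0.20 and -0.60 on the wild-type arrays (-0.40 ± 0.11, SE, n = 2, q = 0.0144) and -0.17 and -0.09 on the Trp53-/- arrays (q = 0.225). Parp2, named after its value was seen since it was the other of the 2 called among 5, was -0.26 ± 0.09 in wild-type (SE, n = 2, q = 0.0379). With Benjamini-Hochberg adjustment Parp2 (0.0739) missed 0.05 in wild-type. In Trp53-/- cells 0 of the 5 were called, and 1 had an unadjusted p below 0.05 in limma's fit. For the difference between genotypes 0 of the 5 were called, and 1 had an unadjusted p below 0.05 in that fit. The difference was -0.27 for Parp1 (q = 0.338) and -0.34 for Parp2 (q = 0.182). Of 7 other glycosylases, 2 were called higher in wild-type and 0 lower. These were Mpg, which removes alkylated purines (0.37 ± 0.10, SE, n = 2, q = 0.0119), and Nthl1, which removes oxidized pyrimidines (0.30 ± 0.09, SE, n = 2, q = 0.0273). With Benjamini-Hochberg adjustment Nthl1 (0.0532) missed 0.05. In Trp53-/- cells Mpg (0.43), Nthl1 (0.32) and Tdg, the thymine glycosylase (0.28), were higher and Neil1 (-0.31) was lower. For the difference 0 of the 7 were called, and 0 had an unadjusted p below 0.05. The genes of end processing had 0 of 5 called in wild-type, and 0 at an unadjusted p below 0.05. In Trp53-/- cells 1 was called higher, Tdp2 (0.29), which frees DNA ends from bound topoisomerase. Without the second Trp53-/- array these Trp53-/- counts were 1 glycosylase higher and 0 lower, 0 of 5 for end processing, and 1 of 5 higher for break sensing.

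**Figure D3:**
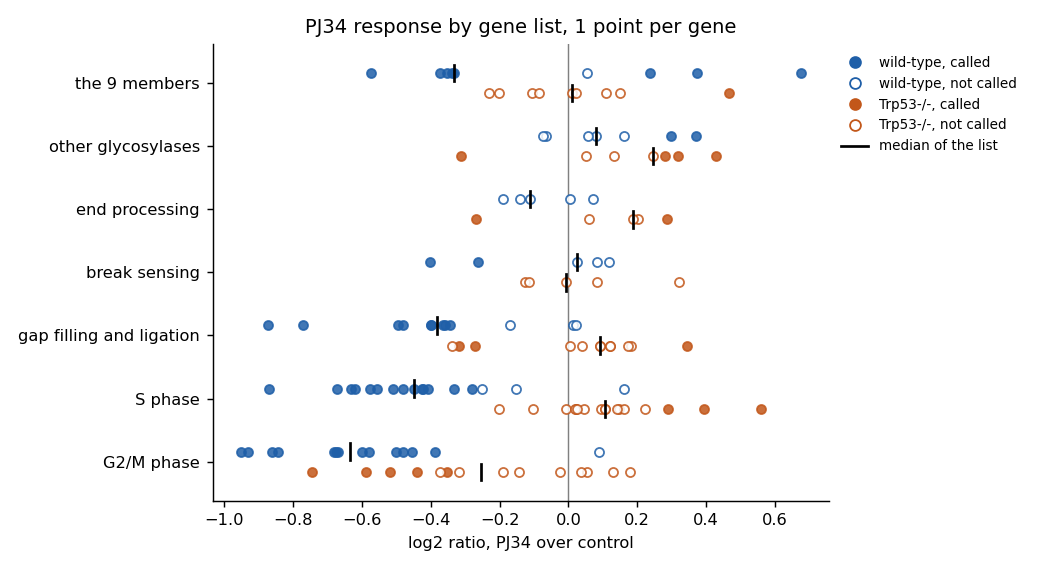
Log2 ratio of PJ34 over control (horizontal axis), 1 point per gene, for the 9 members and 6 lists of related genes in wild-type (blue) and Trp53-/- (orange); filled points passed p and q below 0.05, and black bars are medians of the list. In wild-type the medians of gap filling and ligation (-0.38), S phase (-0.45) and G2/M phase (-0.64) lie below 0, and in Trp53-/- those of gap filling and ligation (0.09) and S phase (0.11) lie above 0. With median centring all these medians lie above 0. The median of all genes is then 0.46 in wild-type, above these wild-type medians, and 0.64 in Trp53-/-.

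The last comparison was of untreated cells, as the level in the control channel after quantile normalization of mean intensities between arrays. The arrays of the genotypes were on different slides and scanned apart. The untreated cultures also differed in sex-linked genes. Eif2s3y (-2.58, q = 0.00831) and Ddx3y (-2.04, q = 0.00831) were called lower in Trp53-/- cells. Xist was 1.06 higher there but was not called (q = 0.0552). Slide, scan, any difference in strain background or in the sex of the embryos, and genotype therefore cannot be told apart in this comparison. One member of 9 was called, beside 5.22% of 16862 genes called higher in Trp53-/- and 5.2% called lower, and it was among the 4.82% called past 2-fold. This was Ogg1, with log2 levels of 9.97 and 9.89 in wild-type and 8.61 and 8.64 in Trp53-/- cells. The groups were far apart, with the spread inside each below 0.1, and Ogg1 was 2.47-fold lower in Trp53-/- (-1.30 ± 0.17, SE, n = 2, q = 0.0141). Its level with PJ34 kept that order, at 9.63 and 9.56 in wild-type and 8.57 and 8.22 in Trp53-/- cells. The difference lay between -1.26 and -1.43 under all alternatives, but with either Trp53-/- array left out 0 of 9 members were called, Ogg1 then having q = 0.132 without replicate 1 and q = 0.211 without replicate 2. Without a wild-type array more members were called, Ogg1 in each case, but the spread then came from the Trp53-/- pair alone. These calls are not set beside the share of all genes.

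Aptx was the next, with levels of 7.30 and 7.18 in wild-type and 7.66 and 7.75 in Trp53-/- cells. The difference of 0.46 ± 0.17 missed the threshold (SE, n = 2, q = 0.0875). Fen1 was at 13.22 and 12.90 in wild-type and 12.82 and 12.51 in Trp53-/- cells and was not called (-0.39 ± 0.21, SE, n = 2, q = 0.159). The levels of the other members overlapped between the genotypes. Xrcc1 was at 11.73 and 12.42 against 12.41 and 12.48, Ung at 13.86 and 13.26 against 13.28 and 13.30, and Neil3 at 7.91 and 7.05 against 7.23 and 7.49. In these 3 genes the spread came mostly from the wild-type pair. Polb differed by 0.01 (95% interval from -0.43 to 0.44), Lig3 by 0.15 (from -0.45 to 0.74) and Apex1 by -0.19 (from -0.69 to 0.31).

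**Figure D4:**
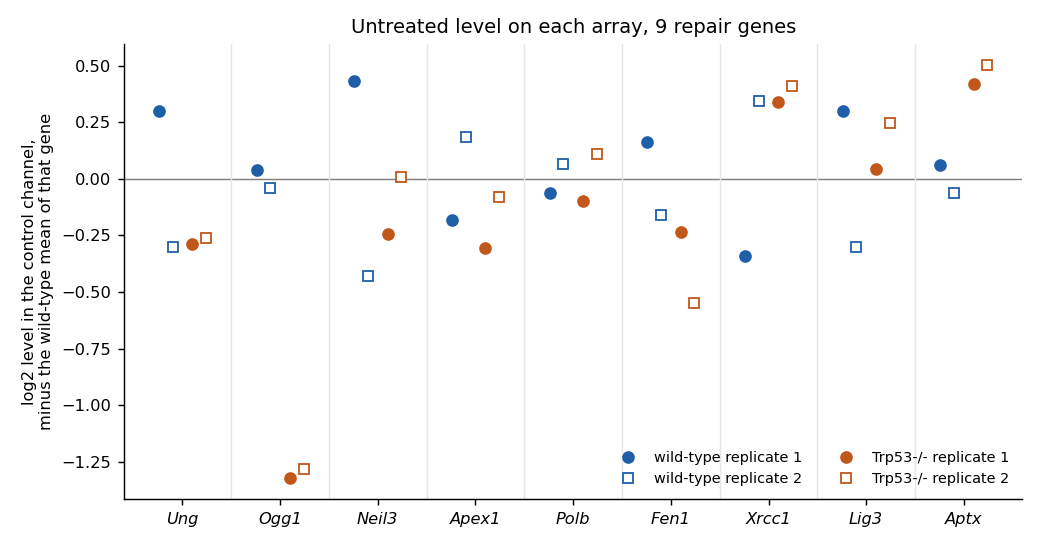
Log2 level of the control channel on each array minus the wild-type mean of the same gene (vertical axis), for the 9 repair genes, with wild-type in blue, Trp53-/- in orange, circles for replicate 1 and open squares for replicate 2. Both Trp53-/- arrays lie below both wild-type arrays in Ogg1 (mean difference -1.30) and Fen1 (-0.39), and Aptx is the only member with both above (0.46). Only Ogg1 was called, and the share of all genes so separated was not counted.

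Markers of other cells differed between the untreated cultures too. Of 6 astrocyte markers, 4 were called higher in Trp53-/- and 0 lower, with Gfap 2.38 and S100b 1.90 higher. Of 8 oligodendrocyte markers, 2 were called higher and 1 lower, with Mbp 1.99 higher. Of 6 neuron markers with a level, 2 were called higher and 1 lower, while Stmn2 and Neurod1 were not well above background in any control channel. The log2 of the summed level was 10.9 and 11.7 in wild-type and 11.7 on both Trp53-/- arrays for the astrocyte list, and 15.4 and 15.3 against 15.6 and 15.5 for the oligodendrocyte list. For the neuron list it was 13.3 and 12.9 against 12.7 and 12.8. Genes of S phase had 2 of 17 called lower in untreated Trp53-/- cells, where 8 had an unadjusted p below 0.05 in limma's fit. Of these 17, 16 lay below 0 (median -0.46). Of 13 genes of G2 and M phase 0 were called and 0 had an unadjusted p below 0.05, and 12 lay below 0 (median -0.26). Of the other repair lists 0 of 7 glycosylases, 0 of 5 end processing, 0 of 4 break sensing and 0 of 12 gap filling and ligation genes were called, where 0, 1, 1 and 2 had an unadjusted p below 0.05 in limma's fit. Without the second Trp53-/- array 1 astrocyte and 1 oligodendrocyte marker were called higher, and 0 neuron markers and 0 S phase genes were called. The part of these cell types in the level of Ogg1 was not tested.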

How the data were processed

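RNA of PJ34-treated (Cy5) and untreated (Cy3) NSPCs was measured on 4 arrays of 55681 probes, 2 per genotype. The intensity values deposited by the authors are the mean signal of each spot and the median of its local background, from Agilent Feature Extraction 10.7.3.1, not normalized. The log10 ratios deposited by the authors are the ratios of the same software, converted to log2 here and used as an alternative, and its deposited flags (other values) gave outlier spots and probes well above background. A table of normalized values with 4 columns named by number was not used.

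In limma 3.58.1 (R 4.3.3) the background was corrected by normexp with an offset of 50 and ratios were normalized by loess. Outlier and control spots were left out. Probes with a channel well above background on both arrays of a genotype were kept (27036 probes, 19678 genes), and for untreated levels, taken after Aquantile normalization, those with the control channel so (22414 probes, 16862 genes). This second filter was set after the files were read. A gene's value is that of its brightest probe. limma's linear model was fitted to all 4 arrays together, which left 2 residual degrees of freedom (10.5 after moderation for ratios, 6.12 for levels), and genes were called at p below 0.05 and Storey's q below 0.05, over all genes. The paper's 2-fold criterion was counted separately. The fits were tested on simulated data.

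Of all probes, 48.9% took their symbol through a RefSeq accession (GRCm38.p6), and the others kept the symbol in the files. Probe positions are on mm9, for which no annotation was used here, so exon or intron is not given. All 9 members were named in every comparison; of the other repair lists, the called genes up to 5 per direction; and Trp53, Cdkn1a, Xist, Eif2s3y and Ddx3y as checks. Some genes of these lists are not reported here by name. The members and lists were chosen with earlier results of these data known. Alternatives were no background correction, an offset of 16, no filter and a strict filter, the mean of a gene's probes, Benjamini-Hochberg adjustment, median centring, the scanner software's values, control-channel quantile normalization, each genotype alone, a replicate block, and leaving out each array.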

Additional observations from a re-analysis of the deposited data

How the results depend on the processing

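In wild-type the count of 8 members called by PJ34 stayed at 7 or 8 without background correction, with an offset of 16, with no filter or a strict filter, with the mean of a gene's probes, with the replicate block (7) and with each genotype alone (7). It was 5 with Benjamini-Hochberg adjustment, 4 with median centring and 1 from the ratios of the scanner software, and leaving out 1 array gave 3 to 7. Median centring turned Lig3 (0.21), Fen1 (0.11), Ogg1 (0.26) and Apex1 (0.33) above 0, where the median of all genes was 0.46, and the cause was not tested. In Trp53-/- the count of 1 became 9 with median centring and 0 from the ratios of the scanner software, and 1 to 2 when 1 array was left out. For the calls lost with the ratios of the scanner software the cause was not tested. The share of all genes called is not set beside the counts of this paragraph. For the difference between genotypes the count was 0 under every alternative run. For untreated levels the count of 1 held in all alternatives but leaving out 1 array, which gave 0 to 6; the lone array of a genotype was then assumed to vary like the pair of the other. Deviations of same-numbered arrays correlated at -0.18 for ratios and 0.08 for levels, which does not show whether the replicate numbers paired the arrays. The replicate block is only given here: 7 members in wild-type, 1 in Trp53-/-, 0 for the difference and 1 for untreated levels. With the numbers crossed, chosen after seeing the data, 8, 2 and 0 were called. Slide as a block could not be run, because every array had its own slide. The number of arrays limits the precision; all 9 probes used were well above background in both channels of all 4 arrays.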
